A study of Mus musculus with 21 samples.

Results

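Macrophages given an isotype control protein for 24 h were set against untreated macrophages across all genes, to see what remained of the response present at 4 h and what had turned by 24 h. The groups were taken from the sample titles: the 3 libraries of isotype at 24 h and the 3 untreated libraries at 0 h, 6 of the 21 libraries in the series. The 3 libraries of isotype at 4 h were used to place the early response, and the 3 at 12 h for levels only. All of these cells had the C57BL/6J background, and the series describes the macrophages it treated as deficient in the mannose receptor, a C-type lectin encoded by Mrc1, so that the controls carry the same deficiency. Marrow of femurs and tibias was cultured for 7 days with 2.5% supernatant of cells that make GM-CSF, after which the untreated cells were taken and the others received the protein. In the study the isotype is the control for FcMR, the extracellular mannose receptor joined to the Fc region of human IgG1.

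The untreated libraries of the series are all labelled 0 h. At 24 h, and at 4 h as well, the isotype protein and the further time in culture therefore cannot be told apart. No label says that the 3 libraries of a group came from separate mice or cultures. The p-values therefore rest on the spread between libraries within groups, which may be technical. That spread was estimated over all 21 libraries of the series and not over the compared groups alone.

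Macrophages detect microbial products and antibody complexes through Toll-like and Fc receptors. NF-kB and AP-1 transcription factors then induce cytokine genes within hours, and interferon released by the cells acts back on them through STAT and IRF proteins to induce antiviral genes more slowly. GM-CSF signals through STAT5, and marrow grown in it holds macrophage-like cells together with dendritic-like cells.

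The promoter sequences of 4 antiviral genes and 1 sterol gene are shown because every antiviral gene rose and most sterol genes fell at 24 h. Type I interferon acts through the interferon-stimulated response element (ISRE), searched here on both strands as GAAA, any 2 bases and GAAA, so that TTTC, any 2 bases and TTTC is the same element on the other strand. It was present in 1131 of 32851 RefSeq promoters (3.44%) of 300 bases each, and in the promoters of 17 of the 28 antiviral list genes with an entry (60.7%), beside 3.99% of the 27025 genes. The sterol regulatory element, searched as TCACNCCAC on both strands, was present in 1.24% of promoters and in 1 of 17 sterol genes with an entry (5.88%), beside 1.44% of genes. Each stretch below is from RefSeq on GRCm38.p6, reads 5′ to 3′ along the gene's strand and lies before its start, with the motif in capitals. The 4 antiviral genes are those with the largest changes among members with an entry and a match, and Hmgcs1 is the sterol gene with a match. The stretches are Apol9b at chr15:77728975-77729071 on the plus strand, Oas3 at chr5:120777665-120777794 on the minus strand, Ifit3 at chr19:34583313-34583476 on the plus strand, Oas1g at chr5:120887614-120887691 on the minus strand and Hmgcs1 at chr13:119690154-119690282 on the plus strand.
Apol9b: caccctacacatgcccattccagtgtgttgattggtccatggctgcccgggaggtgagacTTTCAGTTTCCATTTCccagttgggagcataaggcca
Oas3: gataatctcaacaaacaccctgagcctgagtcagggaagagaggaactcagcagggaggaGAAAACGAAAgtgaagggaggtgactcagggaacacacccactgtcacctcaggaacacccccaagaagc
Ifit3: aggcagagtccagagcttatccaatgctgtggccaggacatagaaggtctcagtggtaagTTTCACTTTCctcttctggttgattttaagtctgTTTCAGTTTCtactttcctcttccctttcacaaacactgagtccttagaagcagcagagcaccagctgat
Oas1g: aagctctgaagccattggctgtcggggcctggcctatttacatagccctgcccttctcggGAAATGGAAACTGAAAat
Hmgcs1: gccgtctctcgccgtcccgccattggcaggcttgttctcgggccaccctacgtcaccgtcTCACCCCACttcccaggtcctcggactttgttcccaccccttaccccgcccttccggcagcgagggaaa
Ifit3 held 2 separate ISRE matches, Apol9b and Oas1g held 2 overlapping ones each, and Oas3 held 1. A match describes the letters and is not evidence of binding. The antiviral list was made of genes that interferon stimulates, so its share of ISRE matches describes the list and is not a result about these cells.

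The cell labels were checked first. Mrc1 (ENSMUSG00000026712.3, chromosome 2, 14229392 to 14332057, GRCm38) stood at 0.291, 0.414 and 0.245 CPM (counts scaled to the size of the library, with TMM factors, here and throughout) in the untreated libraries and at 0.589, 0.429 and 0.515 at 24 h, 15 and 14 counts in all, too few to be tested. Of 10 macrophage markers, Ptprc (CD45) was at 521, 579.5 and 534 CPM untreated and at 661, 620.4 and 660.2 at 24 h, and Csf1r, Cd68 and Lyz2 were likewise present in all 6 libraries. The cells thus carried macrophage markers and next to no Mrc1 in both groups. Markers of neutrophils, eosinophils and dendritic cells were present too, so these levels do not tell macrophages from other cells of the culture. Library totals were 9292540 to 19376498 counts in the untreated group and 7402006 to 9556249 at 24 h, r between replicates of a group was 0.975 to 0.981 for log2 CPM, and the 20 most abundant genes took 14.8 to 15.4% of counts untreated and 19.6 to 19.9% at 24 h. The mean deviation of GC-rich against GC-poor transcripts (at least 57.7% against at most 42.3% GC, log2) was 0.05 to 0.81 untreated and -0.09 to -0.03 at 24 h. In isotype 4 h replicate 3 it was 0.64, against -0.83 and -1.59 in the other replicates, and the number that opens its title is out of sequence, so counts of calls that use the 4 h group, and log2 fold changes that use it, are also given without that library, in brackets or in a sentence that names it.

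Of 13468 genes tested, 5690 differed between isotype at 24 h and untreated at an edgeR adjusted p under 0.05 (42.2%): 2869 were called higher (21.3%) and 2821 lower (20.9%). The change exceeded 2-fold in 1167 of the higher and 1231 of the lower genes. The 3 libraries of one group lay entirely outside the range of the other for 8440 genes (62.7%), 29.9% higher and 32.8% lower. The library kit does not mark strand, so genes that overlap an antisense neighbour cannot be told apart from it: among those named here Irf7, Irf5, Cxcl10, Cxcl11, Il1b, Cdc20, Junb, Tgm2, Stat5a, Ciita, H2-DMa, Ctsb, Hmgcs1, Ms4a6b and Tnfsf9. Cd74 and Cfb overlap a gene on their own strand. The median log2 fold change over all genes tested was -0.04, and the counts for gene lists that follow are to be read against these shares.

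At 4 h, 4792 genes were called against the same untreated libraries (35.6%), 2743 higher (20.4%) and 2049 lower (15.2%). Both comparisons use those 3 untreated libraries, so their calls are not independent. In the direct test of isotype 24 h against isotype 4 h, which leaves the untreated libraries out, 5257 genes differed (39%), 2287 of them higher at 24 h (17%) and 2970 lower (22.1%). List counts at 4 h and between the times are to be read against the shares of their own comparison. Leaving out isotype 4 h replicate 3 gave 3060 genes above and 3191 below untreated at 4 h, and 2858 above and 2864 below the 4 h level in the direct test. With no filter on low counts the split was 2657 higher and 1918 lower in the direct test, and 1923 higher and 2303 lower at 4 h.

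Called in the same direction at 4 h and 24 h were 2543 genes (18.9% of those tested), which is 44.7% of the calls at 24 h and 53.1% of those at 4 h. Of the 1447 that stayed higher, 333 were called lower at 24 h than at 4 h, 329 were called higher still, and 785 were not called between the times. Of the 1096 that stayed lower, 301 were called lower still and 96 had come back part of the way. Opposite directions were called for 399 genes (2.96%), 239 from higher to lower and 160 from lower to higher. Every one of them passed the direct test between the times. Opposite calls in the same fit make that nearly certain, so it adds no support. Without isotype 4 h replicate 3, 3009 genes kept their direction, 1581 higher and 1428 lower, and 474 turned, 243 from higher to lower and 231 from lower to higher. Of the 1581, 372 were then called lower at 24 h than at 4 h and 301 higher, and of the 1428, 236 were called lower still and 144 had come back. With a correction for GC content 654 genes turned, and with no filter on low counts 134 turned from higher to lower and 170 from lower to higher. Called at 24 h and not at 4 h were 1262 higher and 1486 lower genes, of which 888 and 968 also differed in the same direction between 4 h and 24 h. These numbers were 1450 and 1284, and 932 and 831, without isotype 4 h replicate 3.

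**Figure D1:**
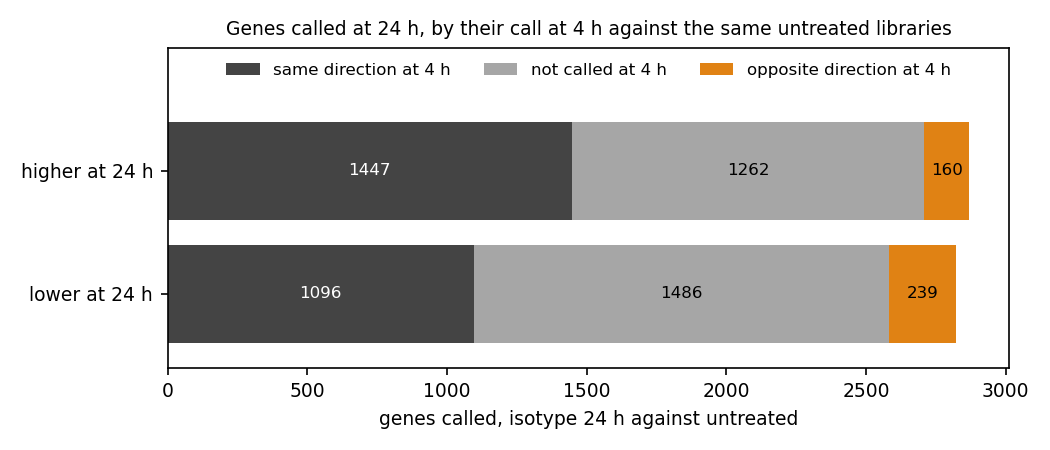
Horizontal bars count the genes called higher (upper bar) and lower (lower bar) in isotype 24 h against untreated, divided by their call at 4 h against the same untreated libraries. Of the genes higher at 24 h, 1447 were already higher at 4 h, 1262 were not called then and 160 were lower. Of those lower at 24 h, 1096 were already lower, 1486 were not called then and 239 were higher.

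The selection took called protein-coding genes with at least 5 CPM in the higher group and no overlap between 24 h and untreated libraries. Its 15 largest increases included Ms4a6b, Saa3 and Ly6a. Ms4a6b (ENSMUSG00000024677.13, chromosome 19, 11516512 to 11531256), a membrane protein of the MS4A family, was at 0.486, 0.460 and 0.409 CPM untreated and at 53.6, 52.1 and 59.1 at 24 h. Its log2 fold change was 6.90 ± 0.21 (SE, edgeR adjusted p = 6.18e-14), and at 4 h its libraries stood between these levels at 7.90, 8.12 and 8.46 CPM. Saa3, an acute-phase serum amyloid, was at 8.55, 7.82 and 8.34 CPM and then at 456, 514 and 539.7, a log2 fold change of 5.94 ± 0.22 (edgeR adjusted p = 1.84e-12). Ly6a (Sca-1), a GPI-anchored surface protein, went from 4.66, 5.06 and 5.07 CPM to 162, 163 and 184, a log2 fold change of 5.10 ± 0.14 (edgeR adjusted p = 3.36e-14), most of it after 4 h, when it was at 14.1, 15.9 and 11.2. That every library at 24 h exceeded every untreated one was a condition of the selection and is no further support for these genes.

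The same selection named the chemokine Cxcl5, the actin-associated Synpo2, Susd2, Ly6i, Ifi44, Irf7, Ms4a4c, the integrin subunit Itgb8, complement factor B (Cfb), Oasl2, the glutathione transferase Gsta3 and Ifi213. Cxcl5 had 3 or fewer counts in all in the untreated libraries and 3.92, 6.11 and 8.37 CPM at 24 h, a ratio of 131 with a 95% counting interval of 35.8 to 1094. Log2 fold changes of the others ran from 4.51 for Ifi213 to 6.29 for Synpo2. Cfb, which starts the alternative complement pathway, was at 37.9, 32.1 and 26.1 CPM untreated and at 912, 825 and 1043 at 24 h. Ms4a6b, Ly6a, Ly6i, Saa3, Cfb, Gsta3, Susd2, Synpo2 and Irf7 were called higher at 24 h than at 4 h, and Cxcl5, Ifi44, Ms4a4c, Itgb8, Oasl2 and Ifi213 were not called between these times; these 15 calls were the same without isotype 4 h replicate 3.

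The largest decreases of the same selection included Il1r2, Cd207 and Asgr2. Il1r2 (ENSMUSG00000026073.13, chromosome 1, 40074079 to 40125231), a receptor that binds IL-1 without signalling, was at 418, 477 and 418 CPM untreated, at 42.1, 45.8 and 34.4 at 4 h and at 4.81, 4.50 and 3.99 at 24 h. The log2 fold change at 24 h was -6.62 ± 0.18 (edgeR adjusted p = 3.36e-14). The 4 h libraries lay between the untreated and 24 h ranges, which the selection required to be apart. Cd207 (langerin) was at 28.9, 38.8 and 36.5 CPM untreated and at 0.0981, 0.322 and 0.515 at 24 h, a log2 fold change of -6.84 ± 0.44 (edgeR adjusted p = 1.12e-09). The asialoglycoprotein receptor subunit Asgr2 went from 64.4, 70.6 and 56.1 CPM to 1.28, 0.643 and 0.644, a log2 fold change of -6.18 ± 0.25 (edgeR adjusted p = 3.44e-12).

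Several of the lowest genes were at or near 0 counts at 24 h, so that a ratio of the untreated to the 24 h level and its 95% counting interval is given in place of a fitted change. Cyp4a12b, a fatty acid hydroxylase, had no count at 24 h and was at least 94.5-fold lower, and its near-identical neighbour Cyp4a12a fell from 38.5, 41.7 and 52.1 CPM to 0.294, 0.858 and 0.257. The AP-1 subunit Fosb was at 14.96, 15.04 and 18.9 CPM untreated and had 1 count at 24 h, a ratio of 439 (95% interval 78.5 to 17360.0). For the granule protein Crisp3 the ratio was 315 (56.3 to 12470.0), for the water channel Aqp3 184 (32.8 to 7305) and for the gluconeogenic enzyme Fbp1 165 (29.3 to 6526). Neutrophil elastase (Elane) stood at 134 (23.8 to 5308), the progesterone receptor Pgr at 76.1 (20.9 to 632), Calcb at 70.9 (24.1 to 346) and Susd4 at 59.4 (20.1 to 289.7). Cox6a2 went from 14.2, 8.33 and 16.3 CPM to 0.0981, 0.322 and 0.257. In bulk RNA, a lower level of such a gene can come from fewer cells of a type or from less RNA per cell, and these cannot be told apart.

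All 35 members of the antiviral interferon-stimulated list rose at 24 h against untreated (21.3% of all genes were called higher). Their median log2 fold change was 2.77, and in all 35 the libraries of the groups did not overlap (29.9% of all genes lay apart and higher). At 4 h the same 35 had also been called higher (20.4% of all genes), with a median of 3.83 (35 and 3.77 without isotype 4 h replicate 3). Between 4 h and 24 h, 21 fell (22.1% of all genes), 2 rose (17%) and 12 were not called. These numbers were 20 and 4 without isotype 4 h replicate 3.

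Members of this list differed in how much of the early level was left. Oasl2 (ENSMUSG00000029561.17, chromosome 5, 114896936 to 114912234), an oligoadenylate synthetase-like protein, was at 12.05, 11.7 and 10.1 CPM untreated, 364, 369 and 326 at 4 h, 444, 454 and 456 at 12 h and 317, 305 and 331 at 24 h. Against untreated it was higher by a log2 fold change of 4.81 ± 0.10 after 24 h (edgeR adjusted p = 2.75e-15) and of 4.96 after 4 h (5.02 without isotype 4 h replicate 3), and the difference between those times was not called (edgeR adjusted p = 0.188, and 0.146 without that replicate). Ifit1 (chromosome 19, 34640871 to 34650009), which binds viral RNA caps, was at 27.6, 24.5 and 17.6 CPM untreated, 993, 1076 and 934 at 4 h, 397, 387 and 402 at 12 h and 108, 92.2 and 105 at 24 h. It remained above untreated by a log2 fold change of 2.13 ± 0.17 (edgeR adjusted p = 2.22e-08) and was -3.30 against 4 h (adjusted p = 2.12e-10; -3.31 without isotype 4 h replicate 3). All 3 libraries of Oasl2 at 24 h were near its 4 h range, while those of Ifit1 lay between untreated and 4 h.

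Log2 fold changes at 24 h were 5.11 for Ifi44, 4.45 for Oas3, 4.13 for Ifit3 and 3.80 for Oas1g. Apol9b had 1 count in the untreated group and 2.84, 2.25 and 1.80 CPM at 24 h, a ratio of 104 (95% interval 17.98 to 4164). Ifitm3, a membrane protein that hinders virus entry, and the synthetase Oas1g were the members called higher at 24 h than at 4 h, joined by Oas3 (0.95) and Bst2 (1.004) without isotype 4 h replicate 3. Ifitm3 was at 63.2, 54.7 and 51.9 CPM untreated, 119, 85.1 and 136 at 4 h and 375, 376 and 404 at 24 h. Isg15, a ubiquitin-like modifier, was at 19.7, 16.7 and 15.2 CPM untreated and 117, 104 and 121 at 24 h, a log2 fold change of 2.73 ± 0.24 (edgeR adjusted p = 5.88e-08), below its 4 h levels of 337, 212 and 488. Rsad2 (viperin) stood at 2.15 at 24 h and 5.32 at 4 h (5.37 without replicate 3), and Cmpk2, a nucleotide kinase, at 1.94 and 5.01 (5.001). The smallest change was in Mx2 (0.66, edgeR adjusted p = 0.00367). The copies Oas1a and Oas1g, Ifit3 and Ifit3b, and Apol9a and Apol9b are near-identical, so estimated counts may pass between them.

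**Figure D2:**
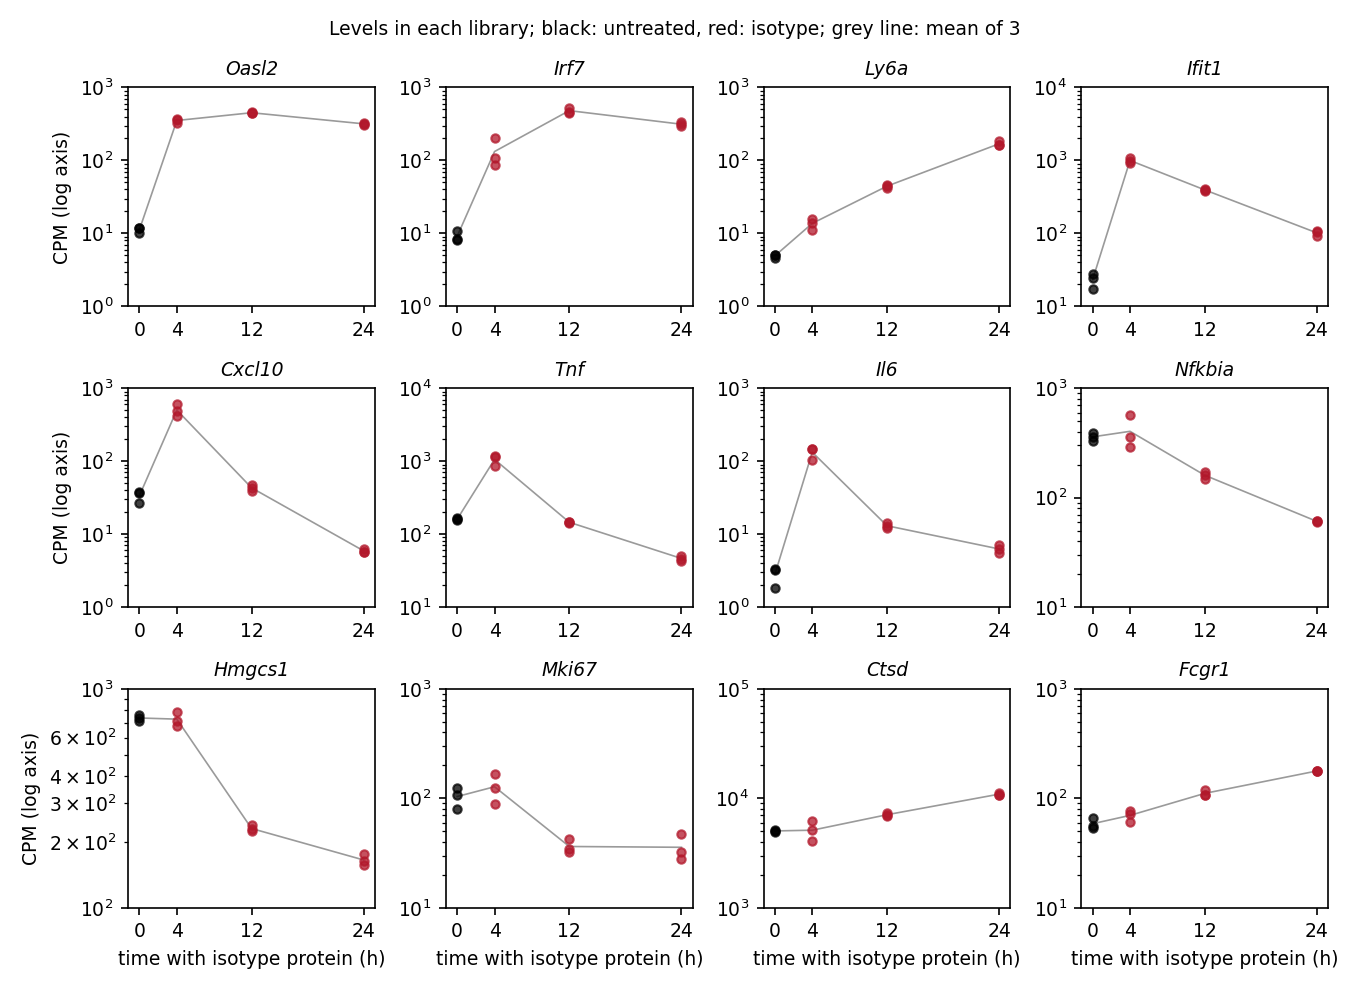
Levels of 12 genes in each library, as CPM on a log axis, against hours with the isotype protein; untreated libraries are black at 0 h, isotype libraries red, and the grey line joins the means of 3. Oasl2 and Irf7 stay high to 24 h and Ly6a is highest at 24 h, whereas Cxcl10, Tnf and Nfkbia end below the untreated libraries.

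Of 20 genes of interferon signalling, 10 rose, 3 fell and 7 were not called. Irf7 (ENSMUSG00000025498.15, chromosome 7, 141262706 to 141266481), the interferon regulatory factor that amplifies type I interferon, was at 10.8, 8.33 and 8.26 CPM untreated, 108, 86.8 and 203 at 4 h and 312, 292 and 337 at 24 h. Its log2 fold change was 5.11 ± 0.32 (edgeR adjusted p = 7.99e-10), and it was the list's one gene called higher at 24 h than at 4 h (1.24, adjusted p = 0.00136). Without isotype 4 h replicate 3 it stood at 1.72 against 4 h, and Irf8, Ifnar2 and Ifngr2 were called higher than at 4 h too. The signal transducer Stat2 (1.31), the brake Usp18 (2.13) and Irf8 (1.22) also rose. Socs3 (-1.25), Irf5 (-1.42) and the interferon gamma receptor chain Ifngr1 (-0.36) fell, the last with an edgeR adjusted p of 0.0553 to 0.0984 without isotype 24 h replicate 1, 2 or 3 or untreated replicate 2 or 3. Transcripts of the ligand Ifnb1 were scarce, 0.291, 0.0460 and 0 CPM untreated and 0.0981, 0.107 and 0 at 24 h. These groups did not differ detectably at this depth (edgeR adjusted p = 0.866). Ifnb1 had been called higher at 4 h (2.62, edgeR adjusted p = 0.0243 without isotype 4 h replicate 3). It was called lower at 24 h than at 4 h (edgeR adjusted p = 0.0274 without that replicate).

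Guanylate-binding proteins and immunity-related GTPases, which attack the vacuoles of intracellular microbes, rose in 13 of 14 members with a median log2 fold change of 1.60. All 14 had been called higher at 4 h (20.4% of all genes), with a median of 3.47, and 13 fell between 4 h and 24 h (22.1% of all genes). These counts were again 14 and 13 without isotype 4 h replicate 3, and the median was 3.54. Gbp5 was at 14.1, 13.9 and 8.50 CPM untreated, 472, 485 and 472 at 4 h and 48.3, 46.5 and 48.01 at 24 h, a log2 fold change of 1.96 ± 0.18 at 24 h (edgeR adjusted p = 9.59e-08). It was still above every untreated library but at a small part of its 4 h level. The largest changes at 24 h were Iigp1 (3.14), Gbp6 (2.99) and Tgtp2 (2.16), the smallest called one Gbp3 (0.58). The copies Gbp4, Gbp8 and Gbp9, and Tgtp1 and Tgtp2, are close in sequence and their counts are uncertain.

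**Figure D3:**
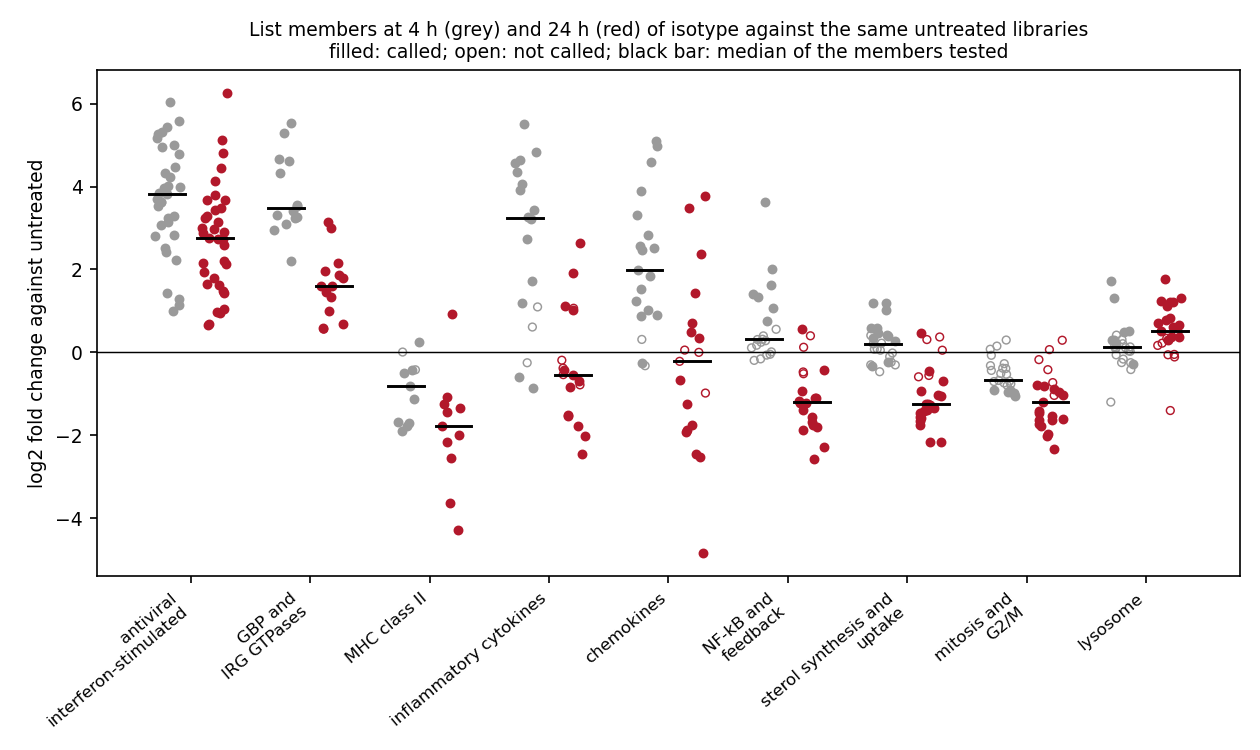
Each point is a member of a list, placed by its fitted log2 fold change at 4 h (grey) and at 24 h (red) against the same untreated libraries; filled points were called, open points were not, and black bars are medians of the members tested. The antiviral list has medians of 3.83 and 2.77 and stays above 0, the cytokine list has medians of 3.24 and -0.54.

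The 2 arms of antigen presentation differed in direction. MHC class I and immunoproteasome genes rose in 9 of 16 members and fell in none, with a median log2 fold change of 0.75. The class I coactivator Nlrc5 was at 19.04, 22.4 and 15.3 CPM untreated and 80.5, 87.7 and 85.2 at 24 h (2.15 ± 0.12, edgeR adjusted p = 1.69e-10). The class I light chain B2m was at 1970.1, 2166 and 2075 CPM untreated and 4877, 4737 and 5166 at 24 h, a log2 fold change of 1.25 ± 0.09 (edgeR adjusted p = 3.5e-09). Psme2 (1.18), Tapbp (1.17) and Erap1 (0.81), which make, load and trim peptides, rose too. The heavy chains H2-K1 (0.55, adjusted p = 0.0669) and H2-D1 (0.45, adjusted p = 0.243) were not called, although their libraries did not overlap. With a correction for GC content the list had 13 members called higher, and 14 with only the compared groups fitted.

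MHC class II genes fell in 10 of 11 members, with a median log2 fold change of -1.78. The exception was cathepsin S (Ctss), the protease that trims the invariant chain, at 0.93. Ciita, the class II transactivator, was at 138, 108 and 87.5 CPM untreated, 108, 80.5 and 145 at 4 h and 21.8, 27.2 and 25.4 at 24 h, a log2 fold change of -2.16 ± 0.24 (edgeR adjusted p = 1.06e-06). It was not called at 4 h (0.01, or -0.23 without isotype 4 h replicate 3) and fell after it (-2.17, or -1.90). The invariant chain Cd74 was at 6440.5, 7106 and 6860.1 CPM untreated and 2639, 2736 and 2668 at 24 h (-1.34 ± 0.21, edgeR adjusted p = 4.22e-05). The peptide-editing chains H2-Ob (-4.29), H2-DMb2 (-3.63), H2-Oa (-2.55) and H2-DMa (-2.00) fell as well, and the smallest fall was that of H2-Aa (-1.07). At 4 h, 8 of the 11 had been called lower, 9 without isotype 4 h replicate 3.

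Inflammatory cytokines and mediators, mostly higher at 4 h, were divided at 24 h. Of 18 members, 13 had been called higher at 4 h, and the list's median was then 3.24 on the log2 scale (13 and 3.13 without isotype 4 h replicate 3). By 24 h, 4 were higher, 9 lower and 5 not called, with a median of -0.54 (-0.58 with scarce members set to their ratio). Without isotype 24 h replicate 1, or without replicate 2, 5 were called lower. Between the times, 16 of 18 fell, also without isotype 4 h replicate 3. Tnf (ENSMUSG00000024401.14, chromosome 17, 35199381 to 35202007) was at 162, 154 and 165 CPM untreated, 1135, 862 and 1174 at 4 h, 141, 147 and 149 at 12 h and 42.4, 46.3 and 50.6 at 24 h. The change against untreated was 2.72 after 4 h (2.64 without replicate 3) and -1.79 ± 0.11 after 24 h on the log2 scale (edgeR adjusted p = 5.51e-10). Every 24 h library of Tnf lay below every untreated one.

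Il6 was at 1.85, 3.31 and 3.27 CPM untreated, 149, 146 and 103 at 4 h and 5.49, 6.22 and 7.08 at 24 h, still above untreated (1.11 ± 0.28, edgeR adjusted p = 0.00427; 0.0544 with limma-voom). Il12b, the shared subunit of IL-12 and IL-23, was at 12.1, 14.3 and 12.1 CPM untreated and 68.2, 88.01 and 84.8 at 24 h (2.64 ± 0.17, edgeR adjusted p = 8.15e-10). Il1rn, the IL-1 receptor antagonist, was at 474, 551 and 562 CPM untreated and 1065, 1075 and 1069 at 24 h (1.02 ± 0.11, edgeR adjusted p = 4.48e-07) and was not called between 4 h and 24 h. Of the 4 genes of this list that rose, Il1rn was the one not called lower at 24 h than at 4 h. Il1b was at 90.7, 116 and 107 CPM untreated, 1035, 1108 and 768 at 4 h and 83.3, 91.4 and 100.0 at 24 h, and was not called at 24 h (-0.19, edgeR adjusted p = 0.302). Nos2 (-0.38, adjusted p = 0.406) and Il10 (adjusted p = 0.695, 3 or fewer counts at 24 h) were not called either. Ptgs2 (cyclooxygenase-2) was at 8.55, 8.83 and 10.2 CPM untreated, 283, 275 and 235 at 4 h and 5.49, 5.57 and 6.05 at 24 h, a log2 fold change of -0.69 ± 0.22 at 24 h (edgeR adjusted p = 0.0153; 0.055 to 0.061 without isotype 24 h replicate 1 or 2 or untreated replicate 3, and 0.106 with limma-voom). The TNF-family ligand Tnfsf9 (-2.46), Il18 (-1.53) and Osm (-1.50) also fell.

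Chemokines were divided too, 7 of 19 higher, 8 lower and 4 not called at 24 h, where 16 had been higher at 4 h (16 also without isotype 4 h replicate 3). Without untreated replicate 1, 4 were called higher at 24 h. Ccl5 was at 51.5, 40.5 and 45.9 CPM untreated, 224, 152 and 413 at 4 h and 548, 654 and 664 at 24 h (3.76 ± 0.31, edgeR adjusted p = 3.07e-08), and it was one of 2 members, with Cxcl14, called higher at 24 h than at 4 h, with or without isotype 4 h replicate 3. Cxcl10 (ENSMUSG00000034855.13, chromosome 5, 92346638 to 92348889), a CXCR3 ligand induced by interferon, was at 37.99, 36.6 and 26.6 CPM untreated, 494, 411 and 600.5 at 4 h, 46.8, 43.4 and 39.2 at 12 h and 5.69, 5.68 and 6.31 at 24 h. On the log2 scale it changed by 3.89 after 4 h, by -2.52 ± 0.17 after 24 h (edgeR adjusted p = 1.73e-09) and by -6.41 from one to the other. The first was 3.75 and the last -6.23 without isotype 4 h replicate 3. Cxcl10 was therefore below its untreated level while the interferon-induced antiviral genes were above theirs.

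Ccl17, a chemokine of GM-CSF-grown cells, was at 892, 861 and 599 CPM untreated, 787, 529.8 and 561 at 4 h and 28.9, 30.1 and 22.5 at 24 h. It was not called at 4 h (-0.33, or -0.25 without isotype 4 h replicate 3) and fell by 24 h (-4.85 ± 0.22, edgeR adjusted p = 1.95e-11). Its partner as a CCR4 ligand, Ccl22, was at 715, 801 and 738 CPM untreated, 4828, 4123 and 4396 at 4 h and 610.5, 697 and 629 at 24 h, not called at 24 h (-0.22, adjusted p = 0.109). The neutrophil-attracting Cxcl3 stayed higher (2.37), Cxcl2 was lower (-1.92), and Cxcl1 was not called (-0.98, adjusted p = 0.206). Ccl2 was at 38.3, 40.4 and 34.2 CPM untreated and 76.7, 67.3 and 41.1 at 24 h, a log2 fold change of 0.72 ± 0.25 (edgeR adjusted p = 0.0274). Without isotype 24 h replicate 1 or 2, or untreated replicate 1 or 3, Ccl2 was not called (edgeR adjusted p = 0.0605 to 0.119). Cxcl9 was higher at 24 h (1.43), and Ccl6 (-1.88) and Ccl4 (-1.76) were lower.

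Among protein-coding genes with at least 5 CPM in the higher group, those 8 that turned most from higher at 4 h to lower at 24 h were Cxcl10, Cd69, Cxcl2, Nfkbiz, Tnf, Ccl4, Tnfsf9 and Tnfsf15. The chemokine gene Cxcl11 also turned but lay outside that selection, being annotated as a polymorphic pseudogene and at 3.16, 4.33 and 2.32 CPM at 4 h. It had 2 counts at 24 h, a ratio of untreated to 24 h of 5.86 (95% interval 1.41 to 51.9), and was not called at 24 h without isotype 24 h replicate 1 or 2 (edgeR adjusted p = 0.0993 and 0.0847) or with DESeq2 (0.0616). Cd69, an early activation marker, was at 20.7, 23.3 and 19.04 CPM untreated, 143, 162 and 116 at 4 h and 5.30, 5.68 and 5.41 at 24 h. Tnfsf15 (TL1A) was at 44.02, 44.3 and 40.9, 207, 214 and 166 and 16.7, 11.8 and 13.5 CPM at these times. The 8 that turned most from lower to higher were Bcl2l14, the scaffold kinase Ksr2, the kinase Matk, Tmem119, Cd300ld3, the deubiquitinase Usp11, Phlda3 and the glutathione transferase Mgst2. Ksr2 was at 11.3, 12.97 and 11.8 CPM untreated, 2.73, 3.25 and 3.24 at 4 h and 33.4, 36.8 and 37.5 at 24 h, and Mgst2 at 18.2, 17.8 and 17.98, 9.05, 8.66 and 6.95 and 59.7, 65.6 and 67.6. Their log2 fold changes at 24 h were 1.57 ± 0.14 and 1.84 ± 0.11 (edgeR adjusted p = 6.73e-08 and 2.79e-10). All 16 genes kept both calls without isotype 4 h replicate 3. Matk at 24 h was not called without untreated replicate 2 or 3 (edgeR adjusted p = 0.0862 and 0.0624).

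Genes that were higher at 24 h than at both earlier groups included Ly6a, Nxpe5, Npas4, the sphingosine 1-phosphate receptor S1pr1 and Serinc2. S1pr1 was at 2.43, 2.39 and 3.35 CPM untreated, 3.59, 1.62 and 2.32 at 4 h, 6.00, 8.36 and 7.81 at 12 h and 30.1, 32.9 and 32.6 at 24 h. Its level was not called changed at 4 h (-0.09, adjusted p = 0.866; -0.01 without isotype 4 h replicate 3) and rose by a log2 fold change of 3.55 ± 0.23 at 24 h (edgeR adjusted p = 1.11e-09). Nxpe5 showed the same course, with log2 fold changes of 0.07 at 4 h (-0.14 without replicate 3) and 4.24 at 24 h. Among genes called in one direction at both times, the helicase-like Ddx60 was higher (4.76 and 4.44), and Ctnnd2 (-4.37 and -4.03) and Sema4f (-3.86 and -4.17) were lower. Without isotype 4 h replicate 3 the values at 4 h were 4.99, -4.22 and -4.09. Sept3 was also among these, from 7.09, 6.85 and 5.15 CPM untreated to 0, 0.107 and 0.386 at 24 h (-5.34 ± 0.68, edgeR adjusted p = 5.26e-06). Without isotype 4 h replicate 3, Ddx60 was called lower at 24 h than at 4 h, and Fosb lost its call between these times; no other gene named by this selection changed a call.

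Genes of NF-kB and its feedback, which switch inflammatory transcription on and off again, fell below untreated at 24 h in 15 of 20 members (20.9% of all genes were called lower), with a median log2 fold change of -1.20. One rose, the adaptor Traf1 (0.57). Nfkbia (IkB alpha; ENSMUSG00000021025.8, chromosome 12, 55489410 to 55492647), the inhibitor that NF-kB itself induces, was at 357, 328 and 393 CPM untreated, 358, 289.9 and 564 at 4 h, 148, 163 and 169.8 at 12 h and 61.4, 59.7 and 61.02 at 24 h. Its log2 fold change was -2.56 ± 0.18 (edgeR adjusted p = 3.79e-09), and its 24 h libraries lay far below the lowest untreated one. Tnfaip3 (A20), a deubiquitinase that ends the signal, was at 257, 295 and 296 CPM untreated, 609.8, 564 and 608 at 4 h and 140.1, 146 and 156 at 24 h (-0.94 ± 0.08, edgeR adjusted p = 3.23e-08). Nfkbie (-2.29), Nfkbiz (-1.88), Tnip1 (-1.80), the adhesion molecule Icam1 (-1.76) and the precursor subunit Nfkb1 (-1.68) fell. Against isotype at 4 h all 20 members were lower at 24 h (22.1% of all genes), and 14 without isotype 4 h replicate 3.

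Of 25 immediate-early genes, which respond to stimuli before new protein is made, 18 fell and 4 rose, with a median log2 fold change of -1.24. Egr1 was at 23.3, 20.01 and 22.5 CPM untreated and 8.24, 7.93 and 6.69 at 24 h (-1.52 ± 0.20, edgeR adjusted p = 7.53e-06). Egr3 (-4.18), Nr4a1 (-3.94), Junb (-2.61) and Maff (-2.05) were among the larger falls, besides Fosb. The AP-1 subunit Fos went the other way, from 22.8, 21.2 and 26.97 CPM to 44.1, 38.6 and 44.2 (0.84 ± 0.17, edgeR adjusted p = 0.000552). The phosphatase Dusp6 (1.96), Egr2 (0.86) and Atf3 (0.78) also rose. Junb differed widely among the untreated libraries, at 154, 27.3 and 82.1 CPM, in the order of their GC deviation, whose part in the result was not tested. Its call was marginal (edgeR adjusted p = 0.0468), and it was lost without any 1 of isotype 24 h replicates 1, 2 and 3 or untreated replicates 1 and 3 (0.0744 to 0.178).

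Markers of alternative activation, the state that interleukin-4 induces, fell in 12 of 17 members tested, with a median log2 fold change of -1.37; 1 rose, the scavenger receptor Stab1 (1.70). Cd209a, a mouse relative of DC-SIGN, was at 13.4, 19.04 and 14.96 CPM untreated and had 3 counts at 24 h, a ratio of untreated to 24 h of 151 (95% interval 51.5 to 734). The galactose lectin Mgl2 was at 1028, 1240.2 and 1119 CPM untreated, 584, 534 and 548 at 4 h and 75.9, 91.4 and 100.4 at 24 h (-3.66 ± 0.11, edgeR adjusted p = 6.18e-14). Its paralog Clec10a (-5.04) and the transglutaminase Tgm2 (-2.81) also fell. Arg1 (arginase) was at 39.8, 24.5 and 18.2 CPM untreated, 2.30, 3.25 and 2.32 at 4 h and 7.36, 4.61 and 3.60 at 24 h, lower than untreated (-2.39 ± 0.32, edgeR adjusted p = 9.83e-06) and higher than at 4 h (1.02), though not called between these times without isotype 4 h replicate 3 (0.96, adjusted p = 0.0881). The chitinase-like Chil3 was at 2082, 2079.9 and 2724 CPM untreated and 1050.3, 912 and 1251 at 24 h (-1.10 ± 0.17, edgeR adjusted p = 5.04e-05). The other 3 members, Mrc1, Cd163 and Folr2, were too scarce to test.

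Genes of GM-CSF signalling, and genes that GM-CSF sustains in macrophages, went in both directions, 8 of 23 higher and 11 lower. Plet1 (ENSMUSG00000032068.14, chromosome 9, 50494525 to 50505482), a GPI-anchored surface protein, was at 829, 764 and 701 CPM untreated, 228, 265 and 233 at 4 h and 31.4, 30.3 and 26.1 at 24 h (-4.70 ± 0.11, edgeR adjusted p = 3.14e-15). The carbonic anhydrase Car4 (-4.24), Cish (-3.69), which STAT5 induces, the ribonuclease Ear1 (-2.60) and Stat5a (-1.79) fell as well. Among those that rose were the scavenger receptor Marco (1.95), the protease Ctsk (1.93), the transcription factor Bhlhe41 (1.34), and Fabp5 (1.26) and Cd36 (1.21), which carry and take up fatty acids.

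Of 24 sterol synthesis and uptake genes tested, 18 fell at 24 h against untreated, 1 rose and 5 were not called, and the list's median was -1.25 on the log2 scale. At 4 h, 10 had been higher and 2 lower, and all 10 that were higher at 4 h were lower at 24 h. The number higher at 4 h was 10 without isotype 4 h replicate 3, and 5 with only the compared groups fitted. Between the times 17 fell, 16 without isotype 4 h replicate 3. Hmgcs1 (ENSMUSG00000093930.2, chromosome 13, 119690379 to 119708260), HMG-CoA synthase and the gene whose promoter holds the printed sterol element, was at 735, 758 and 717 CPM untreated, 716, 788 and 679 at 4 h, 239, 223 and 228 at 12 h and 176, 163 and 157 at 24 h. It had fallen by 24 h (log2 fold change -2.16 ± 0.10, edgeR adjusted p = 2.33e-11). The level at 4 h overlapped the untreated range and those at 12 h and 24 h did not.

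The isomerase Idi1 was at 301, 328 and 308 CPM untreated, 719, 787 and 616 at 4 h and 113, 119 and 110.4 at 24 h, so that it rose by a log2 fold change of 1.18 (1.27 without replicate 3) and then stood at -1.45 ± 0.17 (edgeR adjusted p = 2e-06). The transcription factor Srebf2 (-1.42, edgeR adjusted p = 0.00423) fell too. Insig1 (-2.16), which holds that factor back, Stard4 (-1.76) and Mvd (-1.66) were other steep falls, and Dhcr7 was the member that rose (0.47; edgeR adjusted p = 0.057 without untreated replicate 2). Of the fatty acid genes, 4 of 13 rose, led by Acss2 (1.79) and Me1 (1.72), and 3 fell, led by Fasn (-1.90). Of all genes, 21.3% were called higher and 20.9% lower. On the efflux side, Abca1, which exports cholesterol, was at 148, 194 and 194 CPM untreated, 151, 143 and 139 at 4 h and 314, 302 and 369 at 24 h (0.88 ± 0.10, edgeR adjusted p = 2.3e-06). With Npc2 (1.26), Soat1 (0.96) and Mylip (0.85) it made up the 4 of 11 LXR and efflux genes that rose, and none fell. With a correction for GC content 5 rose and 1 fell, and with only the compared groups fitted 6 rose and 1 fell.

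**Figure D4:**
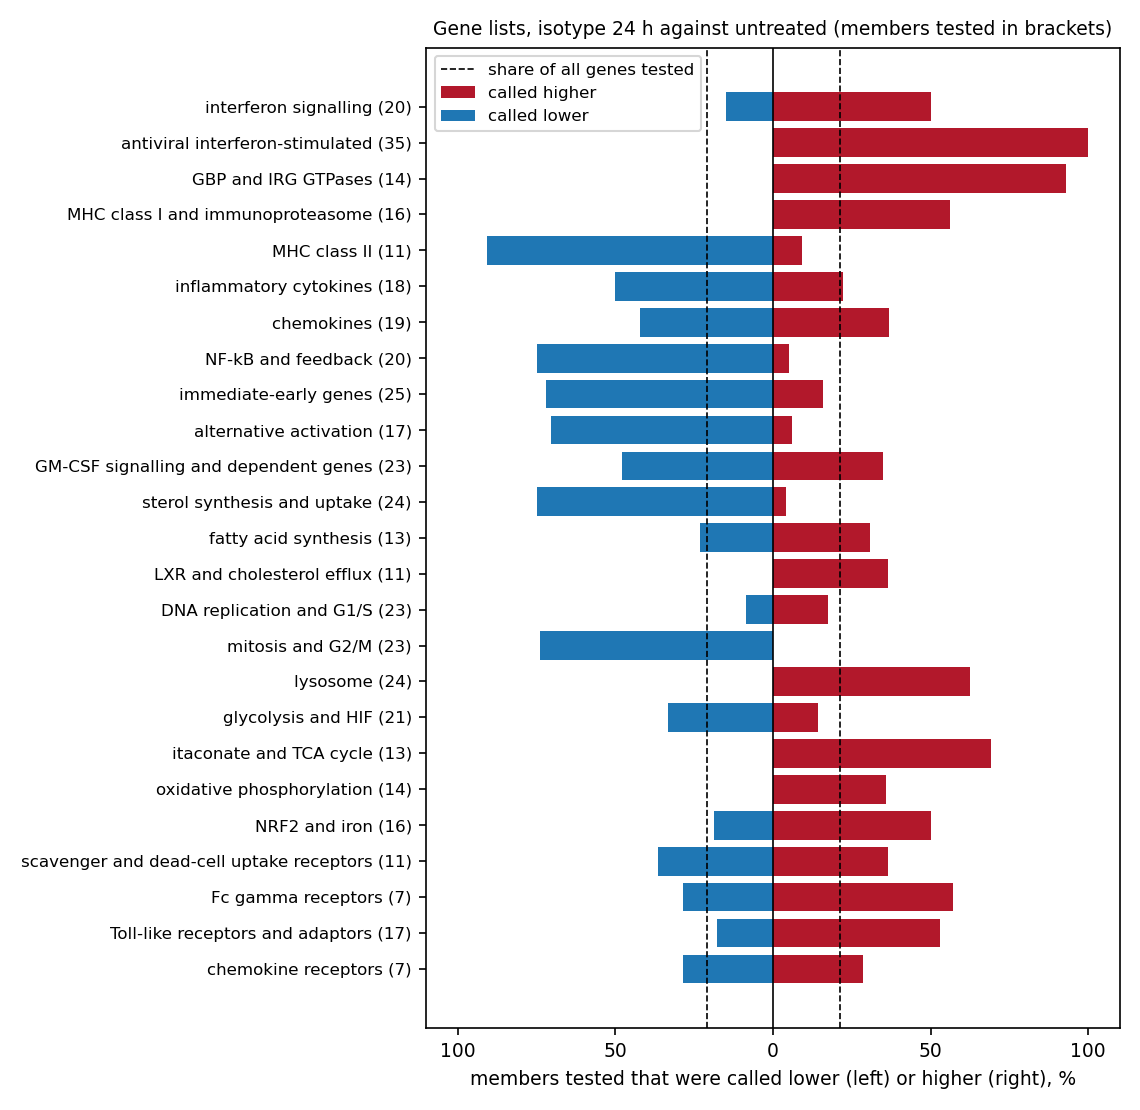
Bars give the percentage of each list's tested members called higher (red, right) or lower (blue, left) in isotype 24 h against untreated, with the number tested in brackets; dashed lines mark 21.3% higher and 20.9% lower among all genes. All 35 antiviral genes lie on the higher side, and MHC class II, NF-kB, immediate-early, sterol and mitosis genes lie mainly on the lower side.

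Mitosis genes fell in 17 of 23 members and rose in none, with a median log2 fold change of -1.20. Mki67 (chromosome 7, 135689784 to 135716361), the Ki-67 proliferation marker, was at 124, 108 and 80.02 CPM untreated, 125, 168 and 89.8 at 4 h and 47.2, 32.4 and 27.7 at 24 h (-1.54 ± 0.24, edgeR adjusted p = 6.3e-05). Cdc20 (-2.34), Ube2c (-2.02), Ccnb2 (-1.98), Nusap1 (-1.79) and Ccnb1 (-1.73) fell most. At 4 h 6 members had been lower, 2 without isotype 4 h replicate 3 and 15 with a correction for GC content; over all alternatives the number ran from 1 to 16. DNA replication and G1/S genes were mostly not called. Of 23, 4 rose, among them E2f1 (0.84) and Mcm6 (0.74), beside 21.3% of all genes. Falls were called in 2, Tk1 (-0.97) and Tyms (-0.58), beside 20.9% of all genes. E2f1 lost its call without untreated replicate 2 (edgeR adjusted p = 0.0525), and Tyms without isotype 24 h replicate 2 or 3 or untreated replicate 1 (0.0799 to 0.129); the number lower ran from 1 to 6 over the alternatives. Cdkn1a (p21), an inhibitor of cell division, was at 356, 341 and 326 CPM untreated, 762, 626 and 923 at 4 h and 284, 317 and 292 at 24 h, not called at 24 h (-0.20, edgeR adjusted p = 0.182).

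Lysosomal genes rose in 15 of 24 members and fell in none, with a median log2 fold change of 0.50. With a correction for GC content, or with only the compared groups fitted, 20 rose and 1 fell. The protease cathepsin D (Ctsd, chromosome 7, 142375911 to 142388038) was at 5058, 5105 and 4967 CPM untreated, 5103, 4094 and 6164 at 4 h and 11311, 10689 and 10808 at 24 h (1.12 ± 0.15, edgeR adjusted p = 8.13e-06). Its untreated and 4 h libraries overlapped and those at 24 h were about 2-fold higher. Mitf (1.78), a transcription factor of lysosomal genes, Gusb (1.31), Lipa (1.24), Ctsb (1.21) and Ctsl (1.21) rose. Against isotype at 4 h, 14 of 24 were higher at 24 h (17% of all genes), 15 without isotype 4 h replicate 3 and 8 with only the compared groups fitted.

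Of 13 itaconate and citric acid cycle genes, 9 rose and none fell, with a median log2 fold change of 0.39. Acod1, which makes itaconate, was at 148, 133 and 112 CPM untreated, 2591, 2241 and 2575 at 4 h and 480.0, 466 and 518 at 24 h (1.90 ± 0.09, edgeR adjusted p = 3.86e-11). The succinate dehydrogenase subunits Sdhb (0.77) and Sdha (0.64) and the enzymes Idh1 (0.76) and Mdh1 (0.67) rose. Of 14 oxidative phosphorylation genes, 5 rose, led by Ndufa9 (0.69), and none fell; with a correction for GC content 9 rose and 1 fell, 10 rose with only the compared groups fitted, and 3 without untreated replicate 3. Of 21 glycolysis and HIF genes, 3 were higher, led by the regulator Pfkfb3 (2.19), beside 21.3% of all genes. Lower were 7, led by Vegfa (-2.18), Egln3 (-1.42) and Bnip3 (-1.21), beside 20.9% of all genes. With only the compared groups fitted 6 were higher. Among 16 NRF2 and iron genes, 8 rose and 3 fell. The peroxiredoxin Prdx1 was at 1801, 1995 and 1884 CPM untreated and 9671, 10811 and 11898 at 24 h (2.51 ± 0.13, edgeR adjusted p = 1.01e-10), Nqo1 (2.13) rose as well, and the transferrin receptor Tfrc (-1.42) fell.

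Fc gamma receptors bind the Fc region of IgG. Of 7 such receptor genes and partners, 4 rose and 2 fell. Fcgr1 (chromosome 3, 96282909 to 96293969), the high-affinity receptor for IgG, was at 53.7, 66.2 and 56.2 CPM untreated, 77.4, 60.8 and 71.6 at 4 h, 119.8, 107 and 107 at 12 h and 178, 177 and 179 at 24 h (1.60 ± 0.10, edgeR adjusted p = 1.2e-09). Fcgr4 was at 5.73, 7.45 and 5.56 CPM untreated and 24.6, 21.4 and 19.3 at 24 h (1.79 ± 0.20, edgeR adjusted p = 1.39e-06). Fcgr3 had been called lower at 4 h (-0.78, or -0.63 without isotype 4 h replicate 3) and was higher at 24 h (0.54). The inhibitory receptor Fcgr2b was at 335, 407 and 375 CPM untreated, 197, 193 and 158 at 4 h and 326, 323 and 369 at 24 h, not called at 24 h (-0.13, edgeR adjusted p = 0.271). The neonatal receptor Fcgrt (-2.49), which recycles IgG, and the kinase Syk (-0.54) fell.

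Toll-like receptors moved unequally. Of 17 receptor and adaptor genes tested, 9 rose and 3 fell. Tlr1 was at 2.23, 2.76 and 2.04 CPM untreated and 40.02, 43.8 and 42.9 at 24 h (4.14 ± 0.17, edgeR adjusted p = 5.97e-12), while Tlr2, with which its product pairs, was at 581, 644 and 678 and 138, 122 and 135 CPM (-2.27 ± 0.10, edgeR adjusted p = 7.61e-12). The nucleic acid sensors Tlr3 (2.84), Tlr8 (2.50) and Tlr13 (1.67) rose, and Tlr9 (-1.39) fell. Cd14, the coreceptor for endotoxin, fell (-0.92; edgeR adjusted p = 0.0533 without untreated replicate 3), and Tlr4 itself was not called (0.06, edgeR adjusted p = 0.83). Of 11 scavenger and uptake receptor genes tested, 4 rose, led by Msr1 (1.77), and 4 fell, led by the complement chain C1qa (-2.12). Among 7 chemokine receptors, Cx3cr1 (1.95) and Ccr7 (0.66) rose, and Ccrl2 (-0.59) and Cxcr4 (-0.26) fell. Beside these counts, 21.3% of all genes were called higher and 20.9% lower. Ccr2 was at 73.7, 87.3 and 72.7 CPM untreated and 97.7, 75.8 and 74.02 at 24 h (edgeR adjusted p = 0.863). Cxcr4 was not called without isotype 24 h replicate 1, 2 or 3 or untreated replicate 2 or 3 (edgeR adjusted p = 0.0863 to 0.165), nor with DESeq2 (0.0935).

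Markers of cell types moved along with these groups. Of 10 macrophage markers 6 rose and 2 fell, and their summed level went from 25154 to 26159 CPM in the untreated libraries to 31965 to 36204 at 24 h. That rise was not steady, with 28869 to 32424 CPM at 4 h and 23994 to 26134 at 12 h. Adgre1 (F4/80) was at 205, 228 and 193 CPM untreated and 825, 806 and 881 at 24 h (2.01 ± 0.13, edgeR adjusted p = 1.08e-09), and Itgam (1.14) and Cd68 (1.05) rose, while Spi1 (-0.99) and Cd14 fell. Spi1 was not called without isotype 24 h replicate 1, 2 or 3 or untreated replicate 1 or 3 (edgeR adjusted p = 0.0793 to 0.13), and Cd14 not without untreated replicate 3 (0.0533). Neutrophil markers fell in 10 of 11 members, with a median log2 fold change of -3.34. S100a9, a subunit of calprotectin, was at 725, 646 and 754 CPM untreated and 82.4, 65.7 and 59.7 at 24 h (-3.35 ± 0.21, edgeR adjusted p = 8.51e-10). The exception was the collagenase Mmp8, at 336, 412 and 362 CPM untreated and 1189.5, 1244 and 1310.3 at 24 h. The list's summed level, Mmp8 included, was 1824 to 2003 CPM untreated and 1410 to 1497 at 24 h.

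Mast cell and basophil markers fell in all 7 members, their sum going from 62.7 to 71.2 CPM untreated to 19.4 to 21.7 at 24 h. Eosinophil markers fell in 3 of 5, and their sum went from 611 to 810 CPM to 79.4 to 115, with the granule protein Prg2 at 624, 484 and 549 CPM untreated and 87.5, 53.7 and 66.04 at 24 h. Of 9 dendritic cell markers, 4 rose, led by Flt3 (3.30), and 4 fell, among them Zbtb46 (-1.40). Of 4 B cell markers tested 1 fell, Cd79a (20.9% of all genes were called lower). Of 3 T and NK cell markers 1 rose, Klrb1c (21.3% of all genes were called higher). Of 3 megakaryocyte genes the platelet chemokines Ppbp (3.52) and Pf4 (2.39) rose and Itga2b (-2.69) fell, and the list's sum went from 20.1 to 23 CPM untreated to 86.1 to 114 at 24 h. Of 3 erythroid markers tested 1 was called lower, Hbb-bs, and of 2 fibroblast markers none was called; 3 members of each of these lists had no count in any 24 h library. Hbb-bs was not called without any 1 of isotype 24 h replicates 1, 2 and 3 or untreated replicates 1 and 3 (edgeR adjusted p = 0.0721 to 0.124), nor Cd79a without isotype 24 h replicate 1 (0.0591). The part of these cell types in the changes of the other lists was not tested.

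**Figure D5:**
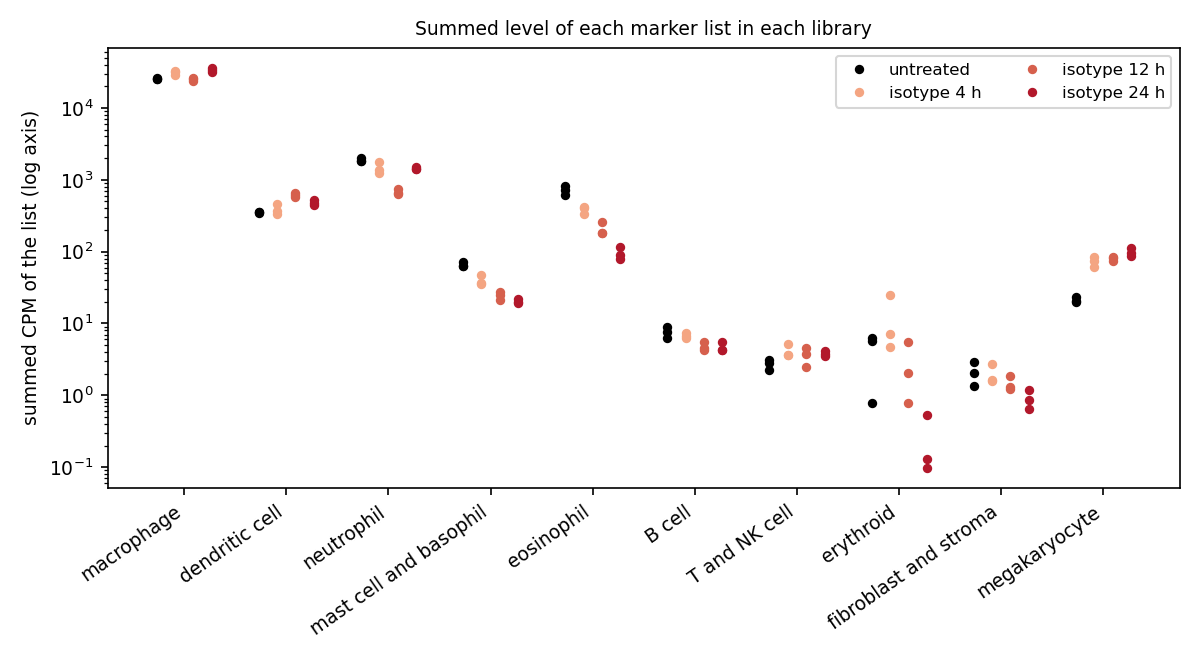
Points give the summed CPM of each marker list in each library, on a log axis, for untreated cells and for 4, 12 and 24 h of isotype. Eosinophil markers are lowest at 24 h (79.4 to 115 CPM), and macrophage markers at 24 h (31965 to 36204 CPM) lie above all untreated libraries. At 12 h the macrophage sum (23994 to 26134 CPM) overlaps the untreated libraries.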

How the data were processed

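The authors deposited a table of estimated counts per gene, whole numbers for 21 libraries, and a table of normalized signal made from it. The submitters' processing notes name CASAVA 1.8.2, kallisto 0.44.0, DESeq2 and GRCm38 (mm10) without their roles, and the annotation is not given in the sources used here. In the normalized signal the authors divided each estimated count by a factor per gene and library, and these factors served only as an alternative. Positions and types of genes are from GENCODE on GRCm38.

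The estimated counts were scaled by TMM and tested with edgeR 4.0.16 (R 4.3.3) by its quasi-likelihood test in 1 fit of all 7 groups of 3, after filterByExpr with a minimum count of 10, which left 13468 of 23250 genes. P-values were adjusted by the Benjamini-Hochberg method over all genes tested, and 0.05 was the threshold. A ratio or a lower bound replaces the fitted change where a group held 3 or fewer counts. All 21 columns matched a library's title, and intervals cover counting error only. The procedure was also run on simulated data with 200 changed genes and no GC shift. Far more genes were called here and the libraries differed in GC deviation, so that run does not test the calls of these data. Alternatives were DESeq2 1.42.0, limma 3.58.1 (voom), other scalings and filters, the compared groups alone, a replicate block, a GC correction and leaving out libraries.

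Genes named were the 15 highest and 15 lowest with at least 5 CPM, 8 each way among those kept, turned and late, up to 5 called members each way per list, and 36 fixed genes. The highest, lowest, kept and late genes had to be called, protein coding and without overlap between 24 h and untreated libraries. Cmpk2, Rsad2, Mx2, Ifitm3, Gbp3, H2-Aa, Nfkb1, Ctsd and Idi1 were named after their values were seen. Results of some genes are not reported here. The genes, lists and comparison were chosen with earlier results of these data known.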

Additional observations from a re-analysis of the deposited data

Results flagged for a closer look

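Levels at 24 h differed from those at 4 h for 5257 of 13468 genes in the direct edgeR test between isotype 24 h and isotype 4 h. It is the test of the difference between both changes against untreated, because they share the untreated libraries. The 16 genes that follow were picked as called in opposite directions at 4 h and 24 h against untreated. A difference between the times was therefore nearly certain for them. Each is given as the log2 fold change of 24 h against 4 h. Lower at 24 h were Cxcl10 (-6.41), Cxcl2 (-5.22), Cd69 (-4.68), Tnf (-4.51), Tnfsf9 (-4.17), Nfkbiz (-3.88), Tnfsf15 (-3.80) and Ccl4 (-3.74). Higher at 24 h were Bcl2l14 (3.83), Tmem119 (3.68), Ksr2 (3.54), Cd300ld3 (3.08), Mgst2 (2.97), Matk (2.805), Usp11 (2.73) and Phlda3 (2.38). All 16 kept their direction without isotype 4 h replicate 3.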

How the results depend on the processing

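Of 91 counts under the alternatives, 88 lay within 1.5 times the reported count. Median log2 fold changes of the lists at 24 h against untreated, marker lists aside, were compared with the SD between libraries of a group. They moved by less than that SD in 348 cases and by at least as much in 77. The exceptions among the counts were 2881 genes called at 4 h with only the compared groups fitted, and 654 called in opposite directions with a GC correction. The last was 694 with the replicate block and GC correction together, and the cause was not tested. For each count, 1 library at a time was left out of the groups it compares. This gave 4876 to 5180 genes at 24 h against untreated, 3784 to 6251 at 4 h and 4344 to 5722 between these times. It gave 2053 to 3009 kept and 286 to 474 turned. Isotype 4 h replicate 3 is in neither group of the 24 h comparison with untreated, but it shares the fit. Without that library this comparison had 3262 calls above untreated and 2955 below, against 2869 and 2821 with it. Together these lie above the range given. Same-numbered libraries of isotype 24 h and untreated deviated together by r = 0.0173, 0.0301 and 0.0133, and replicate 3 correlated more with another number (0.0215), so the numbers were not taken as pairs. The replicate block gave 5849 genes at 24 h, 2720 kept and 433 turned. The count at 24 h against untreated was 7259 with a GC correction and 7377 with the replicate block and GC correction together. It was 7138 with only the compared groups fitted and 5014 with the authors' factors. Among 233 named genes, 15 lost a call under at least 1 alternative, each given beside its result where 1 library decided it. Those that turned sign were not called: Ifnb1 (0.369 with limma-voom, and -0.828 to 1.13 with 1 library left out), Ccr2 (-0.024 to 0.192), Il10 (-0.991 to 0.628) and Tgtp1 (-0.038 to 1.01), the last 3 with 1 library left out. With libraries of 7402006 to 9556249 counts at 24 h, 3 counts are 0.294 to 0.386 CPM. Near that level at 24 h, Ifnb1 and Il10 did not differ detectably from untreated at this depth. Both had been called higher at 4 h and were called lower at 24 h than at 4 h.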
